A study of Mus musculus with 9 samples.

Results

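The calcineurin pathway genes Rcan1, Rcan2, Ppp3ca, Ppp3cb, Ppp3r1, Nfatc1, Nfatc3 and Camk2d were examined in the ventricles of transgenic mice. Members were selected by gene symbol, as every probe set that the platform annotation gives to 1 listed gene alone, and no signal threshold was applied. Of the 8 genes, 7 had a probe set, out of 8251 genes so named on the array. They had 8 probe sets in all, of which 2 belonged to Nfatc3, and Rcan2 had none. The genes were proposed with results of these arrays in view, among them the lower Rcan1 signal of IGF1R-dnPI3K than of IGF1R mice. The differences and p-values of the members are therefore a description of these arrays and support nothing beyond it.

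The hearts came from 9 female mice at 3 months of age, and the RNA of both ventricles of each mouse went on 1 array. Every mouse overexpressed the insulin-like growth factor 1 receptor from a transgene, and 3 mice carried nothing else (IGF1R). Another 3 also carried a constitutively active PI3K (IGF1R-caPI3K) and the last 3 a dominant negative PI3K (IGF1R-dnPI3K), both built on the p110 catalytic subunit. The labels do not say which promoter drove the transgenes, and hearts without the receptor transgene were not analysed here, so every difference is between receptor-overexpressing hearts. Separate mice stand behind the replicates, which are numbered in deposit order. The comparisons ask how active and blocked PI3K signalling change these genes in a heart that overexpresses the receptor.

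Calcineurin is a phosphatase that calcium and calmodulin switch on. It has a catalytic subunit, encoded by Ppp3ca or Ppp3cb in the heart, and a calcium-binding regulatory subunit, encoded by Ppp3r1. It removes phosphates from NFAT transcription factors such as those of Nfatc1 and Nfatc3, which then enter the nucleus, and GSK3 and DYRK kinases put phosphates back. Rcan1 encodes a protein that binds and inhibits calcineurin, and an internal promoter of Rcan1 is itself known to be switched on by calcineurin and NFAT, so its mRNA is widely used as a readout of the pathway. Rcan2 encodes a related protein. Camk2d encodes the main cardiac isoform of CaM kinase II, another enzyme activated by calcium and calmodulin. In the heart these enzymes are known for their part in hypertrophy.

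Rcan1 lies on the minus strand of mouse chromosome 16, between bases 92391951 and 92466169 of GRCm38.p6. RefSeq gives it 2 start sites, and the 250 bases before each are shown because Rcan1 carried the largest difference among the members. The capitals mark GGAAA, the core letters bound by NFAT proteins, on either strand (TTTCC on the printed one).
Rcan1 downstream start, chr16:92400079-92400328, minus strand: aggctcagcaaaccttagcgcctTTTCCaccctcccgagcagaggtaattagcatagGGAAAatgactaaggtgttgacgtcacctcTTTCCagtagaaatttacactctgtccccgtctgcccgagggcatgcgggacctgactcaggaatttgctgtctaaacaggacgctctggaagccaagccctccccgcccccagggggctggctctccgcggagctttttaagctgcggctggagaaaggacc
Rcan1 upstream start, chr16:92466170-92466419, minus strand: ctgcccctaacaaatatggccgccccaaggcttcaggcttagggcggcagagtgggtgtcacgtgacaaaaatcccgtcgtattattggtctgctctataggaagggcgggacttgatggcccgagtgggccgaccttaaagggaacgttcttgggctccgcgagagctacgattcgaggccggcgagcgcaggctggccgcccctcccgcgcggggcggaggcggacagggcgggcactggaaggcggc
The window of the downstream start held the letters 3 times, with first bases 227, 193 and 163 bases before the start, and the window of the upstream start held them 0 times. Of 32851 windows of the same length before mouse start sites, 55.6% held the letters at least once and 6.39% at least 3 times. Among the other members, the window of Ppp3cb held them 3 times. The windows of Nfatc3 and Rcan2 at their first starts held them 1 and 2 times, and those at their other starts 0 times. That of Camk2d held them 1 time and that of Ppp3r1 0 times. No window was at hand for Ppp3ca and Nfatc1. Such matches are letters in a window, not measured binding. Which of the 2 Rcan1 transcripts the probe set reads was not resolved here.

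The array medians of the deposited signal were 161 to 197, and precision is limited by having 3 arrays a group. A CreX spike-in control had a 3' to 5' ratio of 1.05 to 1.26 on the IGF1R arrays and of 1.74 to 1.89 on the 6 arrays of the other groups. That of Gapdh was 0.747 to 0.818 against 0.843 to 0.943. On both ratios the 3 IGF1R arrays thus lay apart from the other 6. Whatever set these ratios apart cannot be told from group in either comparison against IGF1R, and its part in the differences was not tested. The array of IGF1R-dnPI3K replicate 3 stood apart, with a mean correlation to the others of 0.927 against 0.947 to 0.956. For pyruvate carboxylase, the 3' to 5' ratio was 1.79, 2.11 and 3.25 in IGF1R-dnPI3K replicates 1, 2 and 3, and 1.40 to 1.87 on the 6 arrays of the other groups. The mouse numbers in the titles fall into 3 ranges whose meaning the labels do not state. IGF1R-dnPI3K replicates 2 and 3 lie in a range with no mouse of another group, while replicate 1 shares a range with 1 IGF1R and 1 IGF1R-caPI3K mouse. The 5 measured markers of heart muscle were tested and bright, Myh6 reading at least 20274 in every mouse. Of the listed markers of atria, Myl7 read at most 55.0, Sln 21.3 to 122 and Myl4 154 to 376.

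Rcan1 was the member that differed most, and it was lower in IGF1R-dnPI3K hearts. Its probe set (100555_at) read 4922, 5470 and 6803 in the IGF1R mice. In the IGF1R-caPI3K mice it read 4904, 5633 and 6278, within the range of the IGF1R mice but for one value just below it. In the IGF1R-dnPI3K mice it read 4397, 1588 and 1512. Replicates 2 and 3 were thus far below all 6 mice of the other groups, at 27.7% and 26.4% of the IGF1R mean, and replicate 1, at 76.7%, lay just below the lowest of them. The means of IGF1R, IGF1R-caPI3K and IGF1R-dnPI3K mice were 5732 ± 968, 5605 ± 687 and 2499 ± 1644 (SD, n = 3 each).

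**Figure D1:**
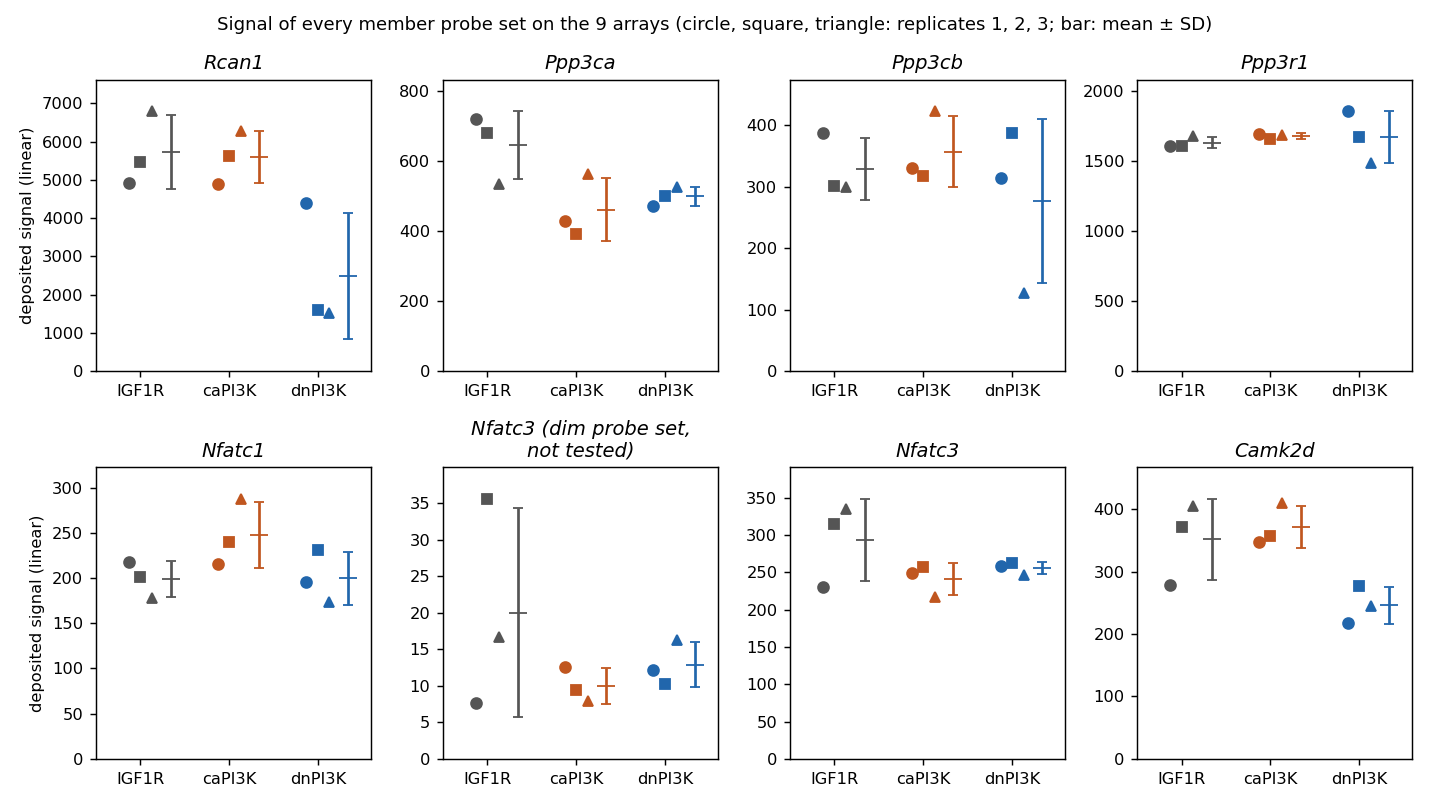
Signal of the 8 member probe sets, on a linear axis from 0, for each mouse of the 3 groups (circle, square and triangle are replicates 1, 2 and 3, and the bar is mean ± SD). Rcan1 is low in IGF1R-dnPI3K replicates 2 and 3, at 1588 and 1512, while Ppp3r1 stays between 1491 and 1861 in all mice.

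Rcan1 was lower in IGF1R-dnPI3K than in IGF1R hearts by a log2 difference of -1.37 ± 0.33 (SE, 95% interval -2.11 to -0.64, limma adjusted p = 0.0271), a ratio of means of 0.436. By p it stood at rank 523 of 7898 probe sets tested, and 7.8% of them passed as lower in this comparison. Rcan1 in IGF1R-caPI3K against IGF1R hearts gave -0.03 ± 0.33, with an interval of -0.76 to 0.71 that holds sizeable changes either way (adjusted p = 0.974). That width takes in the spread of the IGF1R-dnPI3K mice, as the fit shares a common spread over the groups. With only these 2 groups compared, the SE was 0.13. Rcan1 was higher in IGF1R-caPI3K than in IGF1R-dnPI3K hearts by 1.35 ± 0.33, with no overlap of the mice, and did not pass (adjusted p = 0.0868). The limma fit adjusts p over all probe sets and passes those under 0.05.

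The spread of Rcan1 within the IGF1R-dnPI3K group was wide. The SD of its log2 signal was 0.87 there, against 0.24 in IGF1R and 0.18 in IGF1R-caPI3K mice, and 4.46% of probe sets had a larger SD in the IGF1R-dnPI3K group. The median SD over all probe sets in that group was 0.26. Without replicate 1, Rcan1 in IGF1R-dnPI3K against IGF1R hearts was -1.87 ± 0.15 (adjusted p = 2.93e-04). It was -1.14 without replicate 2 and -1.10 without replicate 3, and then missed the threshold (adjusted p = 0.0691 and 0.0746). It also missed it without any 1 of the IGF1R mice (adjusted p = 0.0598, 0.0692 and 0.0979).

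With both IGF1R-dnPI3K mice of their own number range left out, an alternative chosen after seeing the data, the Rcan1 difference from IGF1R was -0.37 ± 0.19 (adjusted p = 0.301). With the number range as a block it was -0.41 ± 0.23 (adjusted p = 0.507). In the range that holds 1 mouse of each group, Rcan1 in the IGF1R-dnPI3K mouse was -0.63 from the IGF1R mouse and that in the IGF1R-caPI3K mouse -0.47. For the 2 mice in that range which differ in their PI3K transgene, IGF1R-caPI3K stood 0.16 above IGF1R-dnPI3K. These are single mice, and for Rcan1 they are the highest IGF1R, the lowest IGF1R-caPI3K and the highest IGF1R-dnPI3K mouse. In the range with 2 IGF1R and 2 IGF1R-caPI3K mice, Rcan1 was 0.20 higher in IGF1R-caPI3K mice. Thus the large part of the Rcan1 difference was read in the 2 IGF1R-dnPI3K mice whose numbers lie apart, where number range and group cannot be told apart.

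**Figure D2:**
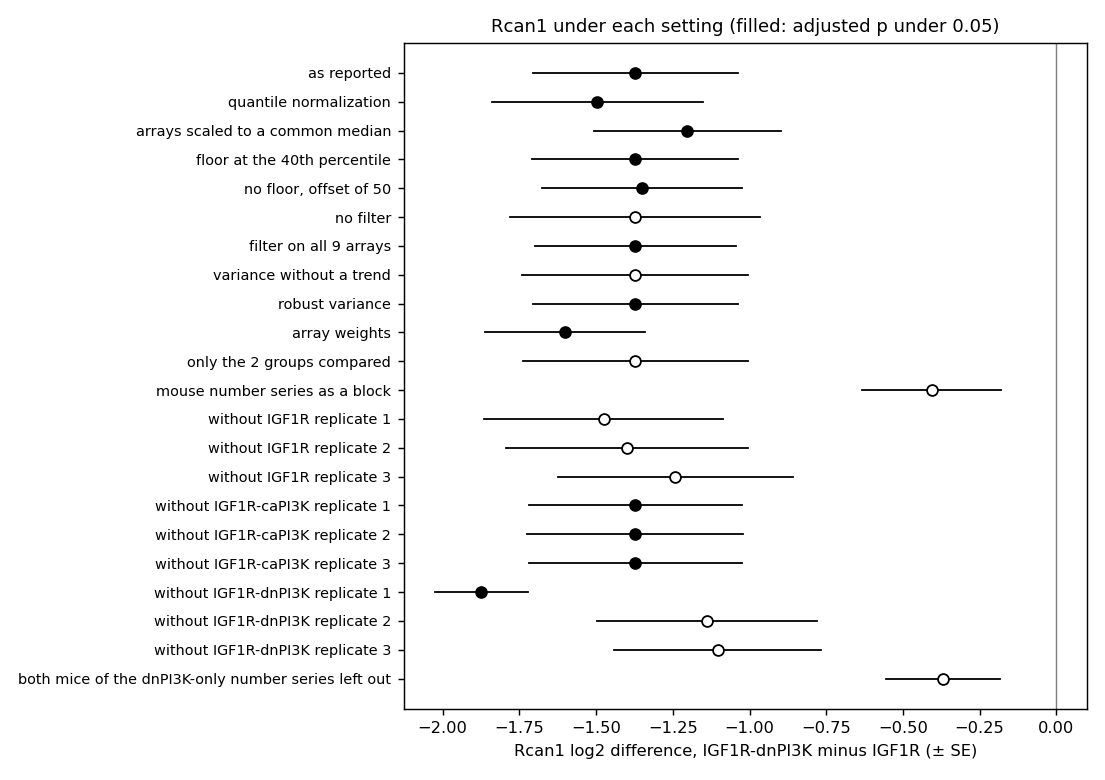
Log2 difference of Rcan1 between IGF1R-dnPI3K and IGF1R hearts (dot, with ± SE) as reported and under each of 21 alternatives. The difference was negative under all of them, from -1.87 to -0.37, and passed an adjusted p of 0.05 (filled) in 11.

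Other measures moved beside Rcan1 across the IGF1R-dnPI3K mice. The pyruvate carboxylase ratio, at 2.11 and 3.25, was highest in replicates 2 and 3, where Rcan1 was lowest, and its part in the Rcan1 result was not tested. The summed signal of 7 fibroblast markers was 25302, 21558 and 21901 in IGF1R-dnPI3K replicates 1, 2 and 3, against 29427 to 32118 in IGF1R and 31719 to 35447 in IGF1R-caPI3K mice. Of the 7, 4 were lower in IGF1R-dnPI3K than in IGF1R hearts and 0 higher. In IGF1R-caPI3K against IGF1R-dnPI3K hearts 3 of the 7 were higher and 0 lower, where 1.24% of all probe sets passed. Over all probe sets tested, 13.5% passed in IGF1R-dnPI3K against IGF1R hearts and 7.8% as lower. The marker counts below for that comparison stand beside these shares. The list did not move as a whole, since Dcn, its brightest gene, read 12432, 14366 and 15224 in the IGF1R-dnPI3K mice. Dcn read 13611, 12243 and 13609 in the IGF1R mice. The sum of 5 macrophage markers was 2100, 1513 and 1338 in the same 3 mice, against 2678 to 2997 in IGF1R and 2602 to 2864 in IGF1R-caPI3K mice. Of the 4 macrophage markers tested, 3 were lower in IGF1R-dnPI3K than in IGF1R hearts.

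The heart muscle sum, over 5 genes, ran the other way, with 113111 to 136145 in IGF1R-dnPI3K against 95097 to 103414 in IGF1R and 101112 to 105862 in IGF1R-caPI3K mice, and 2 of its genes were higher in IGF1R-dnPI3K than in IGF1R hearts. The endothelial sum, over 7 genes, overlapped between these groups (8262 to 10577 against 9692 to 10969), and was 7878 to 9209 in IGF1R-caPI3K mice. Within that list, 1 gene was higher and 2 were lower in IGF1R-dnPI3K than in IGF1R hearts. Kdr, a receptor for VEGF named after its values were seen, read 878, 582 and 383 in IGF1R-dnPI3K mice. It read 708, 622 and 776 in IGF1R-caPI3K mice and 1157 to 1459 in IGF1R mice. Kdr was thus below the IGF1R mice with either PI3K transgene, unlike Rcan1. The smooth muscle sum over 4 genes was 1681 to 2862 in IGF1R-dnPI3K, 1522 to 1553 in IGF1R and 1318 to 1535 in IGF1R-caPI3K mice. Cnn1 was at or below the floor of 32.4 on all arrays. Of the 3 smooth muscle genes tested, 0 passed in any comparison. Acta2 read 2147, 1275 and 941 in IGF1R-dnPI3K replicates 1, 2 and 3, and 839 to 983 in IGF1R mice. The sum of 2 red blood cell genes was 36404 in IGF1R-dnPI3K replicate 3 and 16788 to 21078 in the other 8 mice. No listed marker was at 0. The part of these cell types in the Rcan1 result was not tested, and in RNA of whole ventricles, fewer cells of a type and less RNA per cell cannot be told apart.

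Most genes in the lists of other tissues read below the array medians, which were 161 to 197, in all mice. Myh4 of the skeletal muscle list did not, and read 269 to 436. Myl4 of the atrial list read 284 to 376 in IGF1R, 322 to 366 in IGF1R-caPI3K and 154 to 266 in IGF1R-dnPI3K mice. Cd79a of the lymphocyte list, given below, was above these medians in IGF1R mice. Of 6 skeletal muscle genes, Myh1 and Tnni2 were at or below the floor on all arrays, and the sum was 410 to 631 in IGF1R-dnPI3K, 447 to 565 in IGF1R and 517 to 522 in IGF1R-caPI3K mice. The sum of 3 atrial genes was 246 to 412 in IGF1R-dnPI3K, 357 to 502 in IGF1R and 436 to 457 in IGF1R-caPI3K mice. The sum of 4 lymphocyte genes was 165 to 199 in IGF1R-caPI3K mice, below the 369 to 450 of IGF1R and the 275 to 344 of IGF1R-dnPI3K mice. Cd8a was at or below the floor on all arrays. Cd79a, the 1 gene tested, read 76.9 to 82.8 in IGF1R-caPI3K, 249 to 330 in IGF1R and 162 to 248 in IGF1R-dnPI3K mice. It passed as lower in IGF1R-caPI3K against IGF1R and against IGF1R-dnPI3K hearts, where 0.215% and 1.24% of all probe sets passed. Cd3e and Ptprc overlapped between the groups.

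The genes whose profile was most like that of Rcan1 over the 9 arrays, by Pearson correlation of log2 signals among 7119 probe sets, were Serpinh1 (r = 0.978), Cachd1 (0.978), Emp1 (0.975), Col6a3 (0.972) and Fzd1 (0.971). Serpinh1 encodes a collagen chaperone and Col6a3 a chain of type VI collagen. Emp1 encodes an epithelial membrane protein, and Fzd1 a receptor for Wnt proteins. Serpinh1 read 2906, 1494 and 1248 in the IGF1R-dnPI3K mice, and 3355 to 4132 in the other 6. Emp1 read 3321, 1782 and 1431 in the IGF1R-dnPI3K mice and 3938 to 5080 in the others. Both genes were lowest in the same 2 mice as Rcan1.

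The signal of Col6a3 was 1449, 813 and 602 in the IGF1R-dnPI3K mice and 1500 to 2001 in the others. Against IGF1R hearts, the log2 differences of IGF1R-dnPI3K hearts were -1.16 for Serpinh1, -1.15 for Emp1, -0.92 for Col6a3, -0.63 for Cachd1 and -0.52 for Fzd1. Since these genes were picked for their likeness to Rcan1 on these same arrays, their low values in IGF1R-dnPI3K mice follow from the choice and are given with no test. The arrays also share their scaling, and the correlations carry no p. Among the members, the correlation with Rcan1 was highest for Camk2d (0.644) and lowest for Ppp3ca (0.0887).

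**Figure D3:**
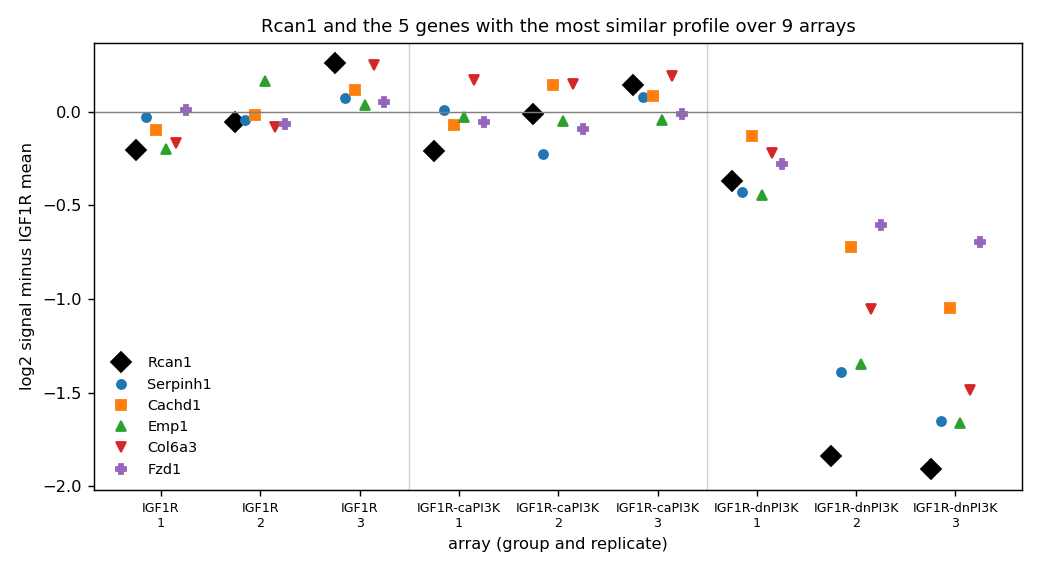
Log2 signal of Rcan1 (black diamonds) and of the 5 genes most like it, each minus the mean of the IGF1R mice, on each of the 9 arrays. The 5 were picked for this likeness, and all 6 genes lie lowest in IGF1R-dnPI3K replicates 2 and 3, where Serpinh1 read 1494 and 1248.

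The catalytic subunits differed less. Ppp3ca (95092_at; chr3:136669714-136937727 in RefSeq's GRCm38.p6) read 722, 682 and 537 in IGF1R mice, 429, 393 and 564 in IGF1R-caPI3K mice, and 471, 501 and 527 in IGF1R-dnPI3K mice. All 3 IGF1R-dnPI3K mice were below all 3 IGF1R mice, whereas IGF1R-caPI3K replicate 3 lay above IGF1R replicate 3. Ppp3ca was -0.49 ± 0.17 in IGF1R-caPI3K against IGF1R hearts (SE, interval -0.86 to -0.12, unadjusted p = 0.0138, limma adjusted p = 0.165). In IGF1R-dnPI3K against IGF1R hearts it was -0.36 ± 0.17 (adjusted p = 0.163), and between the 2 PI3K groups it was -0.13 ± 0.17 (interval -0.50 to 0.24). The mean of Ppp3ca was thus below that of IGF1R mice with either PI3K transgene, and neither difference passed. In the number range with 2 mice of each of these groups, Ppp3ca was -0.57 in IGF1R-caPI3K against IGF1R mice, and in the other shared range -0.32.

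Ppp3cb (97989_at; chr14:20499364-20546573) read 388, 301 and 300 in IGF1R mice and 330, 318 and 424 in IGF1R-caPI3K mice. It read 315, 388 and 128 in the IGF1R-dnPI3K mice, so that replicate 3, the array that stood apart, was low and the other 8 mice overlapped. Its SD of log2 signal in the IGF1R-dnPI3K group was 0.85, exceeded by 4.87% of probe sets. Ppp3cb in IGF1R-dnPI3K against IGF1R hearts was -0.39 ± 0.34 (interval -1.14 to 0.37, adjusted p = 0.463), and without replicate 3 it turned to 0.10. In IGF1R-caPI3K hearts it was 0.11 ± 0.34 against IGF1R (adjusted p = 0.887) and 0.50 ± 0.34 against IGF1R-dnPI3K hearts (adjusted p = 0.507). With only IGF1R-caPI3K and IGF1R mice compared, the SE of Ppp3cb was 0.17.

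The regulatory subunit gene Ppp3r1 was the steadiest member. Its probe set (99183_at; gene at chr11:17159298-17200380) read 1612, 1609 and 1680 in IGF1R mice, 1694, 1657 and 1689 in IGF1R-caPI3K mice and 1861, 1673 and 1491 in IGF1R-dnPI3K mice. The means were 1634 ± 40.1, 1680.1 ± 20.1 and 1675 ± 185 (SD, n = 3 each), and the groups overlapped in all 3 comparisons. The log2 differences of Ppp3r1 were 0.04 ± 0.11 in IGF1R-caPI3K and 0.03 ± 0.11 in IGF1R-dnPI3K against IGF1R hearts (adjusted p = 0.871 and 0.866). Their 95% intervals were -0.20 to 0.28 and -0.21 to 0.27, the narrowest among the members.

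Of the NFAT genes, Nfatc1 (102209_at) read 218, 201 and 178 in IGF1R mice, 215, 240.0 and 288 in IGF1R-caPI3K mice and 195, 231 and 173 in IGF1R-dnPI3K mice. IGF1R-caPI3K replicates 2 and 3 were the highest of the 9, and the groups overlapped. The log2 difference of Nfatc1 was 0.31 ± 0.19 in IGF1R-caPI3K against IGF1R hearts (interval -0.11 to 0.73, adjusted p = 0.409) and 0.31 ± 0.19 against IGF1R-dnPI3K hearts (adjusted p = 0.454). In IGF1R-dnPI3K against IGF1R hearts the interval was -0.42 to 0.42 (adjusted p = 0.998).

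The brighter probe set of Nfatc3 (97975_at; gene at chr8:106058818-106130537) read 231, 315 and 335 in IGF1R mice, 249, 257 and 217 in IGF1R-caPI3K mice and 259, 262 and 247 in IGF1R-dnPI3K mice. IGF1R replicates 2 and 3 were the highest, and IGF1R replicate 1 lay among the mice of the other groups. The log2 differences of Nfatc3 were -0.27 ± 0.18 in IGF1R-caPI3K and -0.18 ± 0.18 in IGF1R-dnPI3K against IGF1R hearts (adjusted p = 0.442 and 0.508), and -0.09 ± 0.18 between the PI3K groups. The other probe set of Nfatc3 (102050_at) read 7.6 to 35.6 over the 9 mice, passed the filter on dim signals on 0 arrays and was not tested. Y-linked probe sets, which have no target in female mice, read up to 59.4.

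Camk2d, like Rcan1, read lower in all IGF1R-dnPI3K mice than in every mouse of both other groups. Its probe set (93214_at; gene at chr3:126595487-126846326) read 279, 372 and 405 in IGF1R mice, 347, 357 and 410 in IGF1R-caPI3K mice, and 217, 276 and 246 in IGF1R-dnPI3K mice. IGF1R replicate 1 was just above the highest of the IGF1R-dnPI3K mice. The means were 352 ± 65.1, 371 ± 33.6 and 246 ± 29.6 (SD, n = 3 each). Camk2d in IGF1R-dnPI3K against IGF1R hearts was -0.50 ± 0.18 (SE, interval -0.89 to -0.11, unadjusted p = 0.0158, limma adjusted p = 0.0782). It was 0.59 ± 0.18 higher in IGF1R-caPI3K than in IGF1R-dnPI3K hearts (unadjusted p = 0.00630, adjusted p = 0.152), and 0.09 ± 0.18 from IGF1R hearts (adjusted p = 0.815). In the number range with 1 mouse of each group, Camk2d was -0.90 in the IGF1R-dnPI3K mouse and -0.22 in the IGF1R-caPI3K mouse against the IGF1R mouse. It was 0.68 higher in the IGF1R-caPI3K than in the IGF1R-dnPI3K mouse. These are single mice, and for Camk2d they include the highest IGF1R and the lowest IGF1R-dnPI3K mouse. Nothing is concluded from them about the number range.

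Across the 7 member probe sets tested, which passed the filter on all 9 arrays, 1 passed in IGF1R-dnPI3K against IGF1R hearts, where 13.5% of all probe sets passed. The count behind that share, 1066, ran from 73 without IGF1R replicate 3 to 1861 without IGF1R-dnPI3K replicate 1. In IGF1R-caPI3K against IGF1R hearts 0 passed, against 0.215% of all probe sets, and in IGF1R-caPI3K against IGF1R-dnPI3K hearts 0 passed, against 1.24%. At an unadjusted limma p under 0.05, 1, 2 and 2 members passed in IGF1R-caPI3K against IGF1R, IGF1R-dnPI3K against IGF1R, and IGF1R-caPI3K against IGF1R-dnPI3K hearts. The shares of all probe sets were 18.4%, 32.2% and 15.4%. The groups did not overlap for 0, 3 and 2 members, against 32.9%, 34.4% and 19.5% of all probe sets. The single member that passed, of 7, is close to the share of all probe sets, and nothing particular to the members is read from these counts. The median log2 difference of the members was 0.04, -0.36 and 0.31 in the same order, and that of all probe sets -0.04, -0.09 and 0.05. The first 2 comparisons share the IGF1R mice, and the last 2 share the IGF1R-dnPI3K mice.

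**Figure D4:**
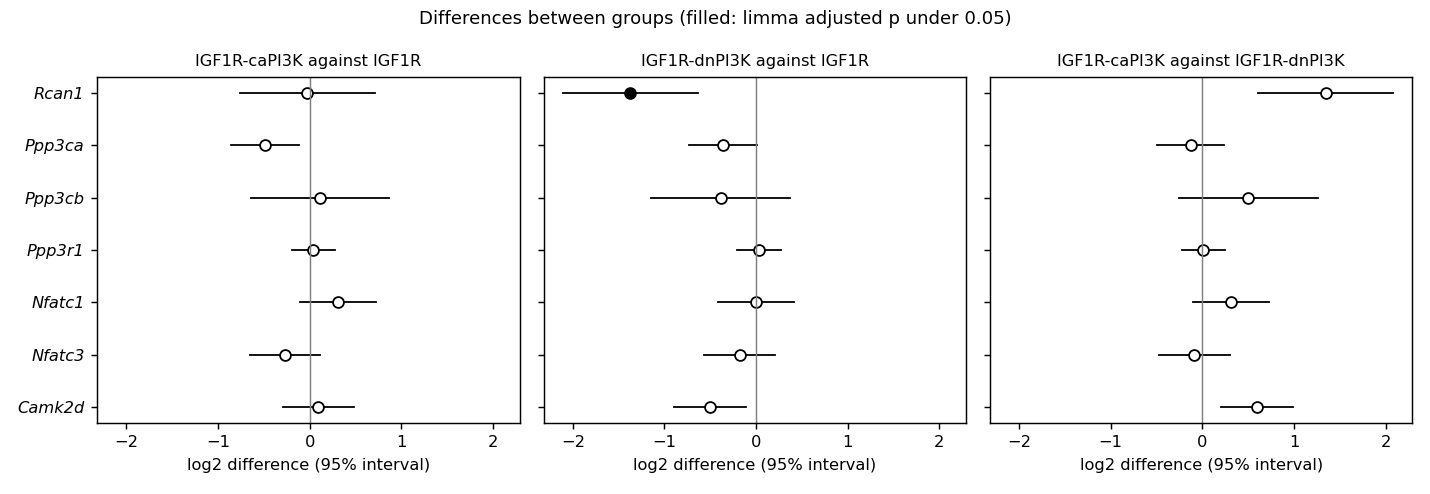
Log2 difference (dot) and 95% interval (line) of the 7 member probe sets tested, in IGF1R-caPI3K against IGF1R, IGF1R-dnPI3K against IGF1R and IGF1R-caPI3K against IGF1R-dnPI3K hearts. The filled dot, Rcan1 at -1.37, is the member that passed an adjusted p of 0.05.

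Other genes of the pathway were read from lists of 54 genes, of which 34 were on the array and 29 were tested, each by its brightest probe set. In IGF1R-dnPI3K against IGF1R hearts 2 rose and 2 fell, or 13.8% of the 29, close to the 13.5% of all probe sets. In IGF1R-caPI3K against IGF1R hearts 0 passed, against 0.215% of all probe sets, and in IGF1R-caPI3K against IGF1R-dnPI3K hearts 1 was higher, or 3.45% against 1.24%. The counts of the single lists below stand beside the same shares. The medians of these genes were 0.16, -0.01 and -0.00283 on the log2 scale in IGF1R-caPI3K against IGF1R, IGF1R-dnPI3K against IGF1R, and IGF1R-caPI3K against IGF1R-dnPI3K hearts.

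Of 6 regulators of calcineurin tested, 0 passed in any comparison. The brightest, Csrp3, a muscle LIM protein that binds calcineurin at the Z disc, read 9385 ± 951 with IGF1R alone, 10488 ± 1256 with caPI3K added and 12193 ± 3439 with dnPI3K added (SD, n = 3 each). Rcan3, a relative of Rcan1, and Ppp3cc, the catalytic subunit best known from testis, are named as family members after their values were seen. Rcan3 read 84.8 ± 34.2, 158 ± 44.2 and 194 ± 59.3 in the same groups (SD, n = 3 each), and its log2 difference in IGF1R-dnPI3K against IGF1R hearts was 1.23 ± 0.38 (limma adjusted p = 0.0573). The value of Rcan3 thus lay on the other side of 0 from that of Rcan1, from a dim probe set. Ppp3cc read 358 ± 14.1, 294 ± 16.2 and 313 ± 23.1, a difference of -0.29 ± 0.13 in IGF1R-caPI3K and -0.20 ± 0.13 in IGF1R-dnPI3K against IGF1R hearts (adjusted p = 0.285 and 0.335).

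Of 10 NFAT relatives, partners and kinases tested, 1 rose and 1 fell in IGF1R-dnPI3K against IGF1R hearts. Gsk3a, a kinase that phosphorylates NFAT for export, read 5079 ± 745 with IGF1R alone, 5902 ± 165 with caPI3K added and 6883 ± 796 with dnPI3K added (SD, n = 3 each) and rose by 0.44 ± 0.13 (SE, adjusted p = 0.0454). Dyrk1a, a kinase that primes NFAT for GSK3, read 1118 ± 148, 766 ± 80.2 and 629 ± 161 in these groups and fell by 0.86 ± 0.19 (adjusted p = 0.0206). A dimmer Dyrk1a probe set gave -0.00801 ± 0.25 (adjusted p = 0.985), so the change of Dyrk1a rests on 1 of 2 probe sets. A second probe set of the NFAT kinase gene Csnk1a1, named after its values were seen, fell by 0.43 ± 0.10 (adjusted p = 0.0267) while the brightest, at -0.15 ± 0.20, did not pass.

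Of 3 calmodulin kinases and class II histone deacetylases tested, 0 passed in any comparison. The brightest, Hdac5, a repressor of hypertrophic genes, read 1379 ± 278, 1599 ± 128 and 1609 ± 219 in these groups (SD, n = 3 each). Of 4 genes of calcium entry and release tested, 0 passed. Cacna1c, the pore of the L-type calcium channel, read 2951 ± 430.5, 2310 ± 139.9 and 2218 ± 290.4 (SD, n = 3 each), and the log2 difference in IGF1R-dnPI3K against IGF1R hearts was -0.41 ± 0.14 (adjusted p = 0.0678). The suffix of the Cacna1c probe set marks possible shared targets.

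Of 6 cardiac genes known to respond to calcineurin and NFAT that were tested, 1 rose and 1 fell in IGF1R-dnPI3K against IGF1R hearts. Nppa, the atrial natriuretic peptide gene, read 3077 ± 320.2 with IGF1R alone, 3916 ± 439 with caPI3K added and 5430 ± 1227 with dnPI3K added (SD, n = 3 each) and rose by 0.80 ± 0.17 (adjusted p = 0.0185). Acta1, the skeletal actin of the fetal heart programme, read 16365 ± 852, 19528 ± 1137 and 10142 ± 3675 and fell by 0.75 ± 0.19 (adjusted p = 0.0324). Acta1 was the 1 gene of the lists that was higher in IGF1R-caPI3K than in IGF1R-dnPI3K hearts, by 1.00 ± 0.19 (adjusted p = 0.0367). So Acta1 fell and Nppa rose where Rcan1 was lower. The bright probe set of Myh7, the slow myosin heavy chain, read 17444 ± 1131, 24406 ± 2453 and 22328 ± 11224 and gave 0.24 ± 0.27 in IGF1R-dnPI3K against IGF1R hearts, while its dim one gave -0.71 ± 0.40, and neither passed. The suffixes of the Myh7 probe sets mark possible shared targets, so the bright signal may not be of Myh7 alone.

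**Figure D5:**
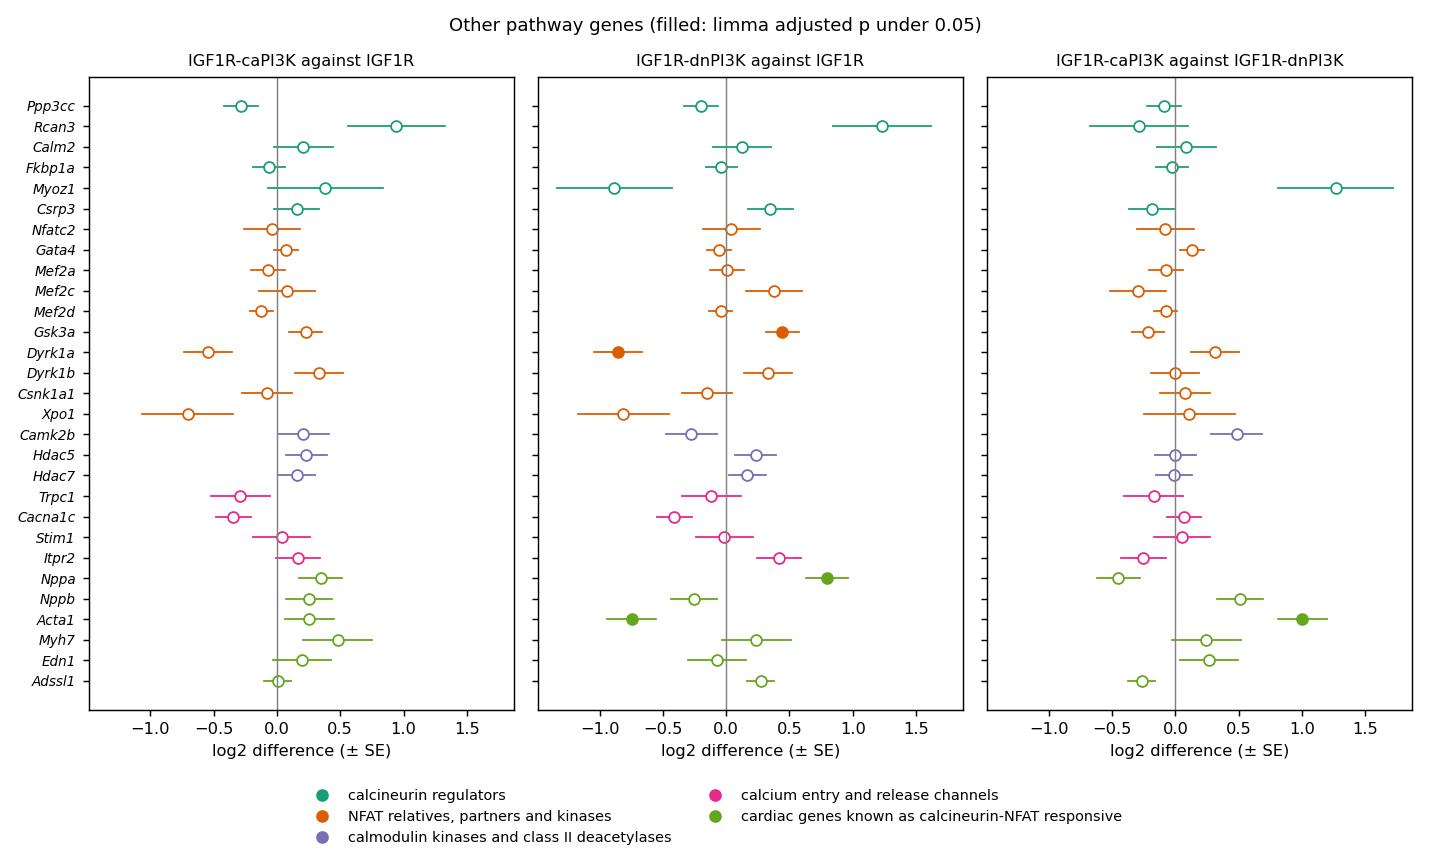
Log2 difference (dot, with ± SE) of the 29 other pathway genes tested, coloured by list, in the 3 comparisons. The filled dots passed an adjusted p of 0.05, and they are Gsk3a, Dyrk1a, Nppa and Acta1 in IGF1R-dnPI3K against IGF1R hearts and Acta1, at 1.00, in IGF1R-caPI3K against IGF1R-dnPI3K hearts.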

How the data were processed

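Per the deposited table, each of 12488 probe sets (66 of them controls) has 1 intensity on each of 9 arrays. The values show that each array was scaled to a common trimmed mean, with 2% cut from each end, while no label names the software that made them. Symbols came from the platform annotation supplied with the table. Signals under 32.4, the 20th percentile of those above 0, were set to that floor before log2. Testing took the 7898 probe sets that, on 3 or more arrays, exceeded the array's 40th percentile. All 9 arrays entered 1 limma 3.58.1 model (R 4.3.3, statmod 1.5.0) with a variance trend. It was run on simulated data with equal spread in the groups. On these arrays the median SD of log2 signal was 0.26 in IGF1R-dnPI3K, 0.16 in IGF1R and 0.16 in IGF1R-caPI3K mice. The simulated run does not cover this unequal spread. Benjamini-Hochberg adjustment ran over all probe sets tested for each of 3 comparisons, with a threshold of 0.05, and fitted values are log2 difference ± SE. P-values set a difference against the spread between mice within groups, which the fit takes over all 3 groups.

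The members and lists were chosen with earlier results of these data known. Named were every member probe set, pathway genes that passed, the gene of each list with the highest mean log2 signal, and the 5 genes most correlated with Rcan1. Loci and sequences are from RefSeq (GRCm38.p6). Windows before a start site were at hand for 6 of the 8 members, and not for Ppp3ca and Nfatc1. Alternatives were 2 other scalings, other floors, filters and variance models, array weights, the number range as a block, 2-group fits and each array left out.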

Additional observations from a re-analysis of the deposited data

How the results depend on the processing

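The count of members passing in IGF1R-dnPI3K against IGF1R hearts was 1 as reported and fell to 0 with no filter on dim signals (Rcan1 adjusted p = 0.110), without the variance trend (0.0527), with only the 2 groups compared (0.0698), with the number range as a block and with both IGF1R-dnPI3K mice of their own number range left out. In IGF1R-caPI3K against IGF1R-dnPI3K hearts it rose from 0 to 1 with array weights, where Rcan1 gave 1.55 ± 0.25 (adjusted p = 0.00809), and in IGF1R-caPI3K against IGF1R hearts it was 0 under every alternative run. With 1 array left out in turn, the counts ran from 0 to 1 in IGF1R-dnPI3K against IGF1R and in IGF1R-caPI3K against IGF1R-dnPI3K hearts; in the latter, Rcan1 gave 1.85 (adjusted p = 3.62e-04) without IGF1R-dnPI3K replicate 1. The Rcan1 difference between these 2 groups was positive under all 21 alternatives, from 0.34 to 1.85. The other 6 members passed under no alternative in any comparison. The cause of these moves was not tested.

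Pathway genes passing in IGF1R-dnPI3K against IGF1R hearts numbered 4 as reported, 0 with no filter, 2 without the trend, 0 with 2 groups, 0 with the block and 2 with both mice left out, and 1 to 8 with 1 array left out. In IGF1R-caPI3K against IGF1R-dnPI3K hearts the 1 as reported became 0 with arrays scaled to a common median, no filter, no trend, 2 groups or the block, 2 with array weights and 2 with both mice left out, and 0 to 2 with 1 array left out. In IGF1R-caPI3K against IGF1R hearts the 0 became 1 with array weights, 2 with 2 groups and 2 with both mice left out, and 0 to 1 with 1 array left out.

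Over all probe sets, IGF1R-dnPI3K against IGF1R hearts had 1066 passing as reported, 450 higher and 616 lower, and 832 higher and 333 lower with arrays scaled to a common median. That scaling shifted the median difference of all probe sets from -0.09 to 0.08. That total was 387 with no filter, 657 without the trend, 132 with 2 groups, 5 with the block and 214 with both mice left out. With 1 array left out it was 208, 201 and 73 without IGF1R replicates 1, 2 and 3, 726, 685 and 714 without IGF1R-caPI3K replicates 1, 2 and 3, and 1861, 884 and 652 without IGF1R-dnPI3K replicates 1, 2 and 3. No paired analysis was possible because each number in the titles belongs to 1 mouse and replicate numbers give deposit order alone. Low signals limit Nfatc3, whose dimmer probe set could not be read.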
